A study of Bos taurus with 6 samples.

Results

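Genomic imprinting is the expression of a gene from only the maternal or only the paternal copy. It is set by DNA methylation that is laid down in the egg or the sperm at control regions, kept through later cell divisions and carried by only the maternal or only the paternal copy, so that such regions are partly methylated in body cells. The 10 genes described here, PEG3, PLAGL1, PEG10, SGCE, MEST, NNAT, SNRPN, GNAS, IGF2R and DLK1, are imprinted in mammals and lie outside the domain around KCNQ1. All 3 kb windows that carry a member gene's label were taken, with the 2 windows upstream of the first labelled window on the gene's strand. This gave 124 windows of 902984 in the genome, 108 of them labelled, for 10 of 26107 labelled gene symbols. Members were taken by gene name, with no threshold on read counts.

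The libraries hold DNA of dermal fibroblasts from 3 Holstein heifers, each sampled at 5 months and again at 16 months of age, 1 library per animal and age. The cells were at passage 5 and had received neither lipopolysaccharide nor a demethylating agent, and the animals were chosen by the study as middle-level responders to lipopolysaccharide. In MIRA-Seq, sheared DNA is pulled down with methyl-CpG-binding proteins and sequenced, so the reads in a window rise with methylation and with the density of CpG sites, and a fully methylated window with few CpG sites cannot be told apart from a partly methylated one with many. The counted reads ran from 19925171 to 43573272 per library. Levels are given per 3 kb window as CPM, that is, counts scaled to a common total over the windows tested and corrected between libraries by TMM factors, and errors are SDs over the 6 libraries unless said otherwise. The share of windows without a read ran from 6.7% to 32.4%, highest in the 5-month library of animal 1 and next in the 16-month library of animal 2 (25.5%). One library per animal and age means that culture, biopsy and library differences are part of every age difference.

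The gene labels give each member's place on UMD v3.1. PEG3 is on the minus strand of chromosome 18 (64267898 to 64282897), and MEST on the plus strand of chromosome 4 (95064605 to 95079604). PEG10 (11912205 to 11924204, plus strand) and SGCE (11840205 to 11912204, minus strand) are neighbours on chromosome 4 that start back to back, so each gene's upstream windows are the other's first windows and 4 windows count for both. PLAGL1 (82416251 to 82476250, minus strand) and IGF2R (97636451 to 97741450, plus strand) are on chromosome 9, and GNAS (58008797 to 58023796, minus strand) and NNAT (67116797 to 67122796, plus strand) on chromosome 13. SNRPN (2263 to 23262, minus strand) and DLK1 (67274663 to 67283662, plus strand) are at opposite ends of chromosome 21. A label need not cover a whole gene. GNAS is labelled over 15 kb, whereas its RefSeq gene on the later assembly ARS-UCD2.0 is 67.3 kb long, and PEG3 is labelled over 15 kb of 23.6 kb. The "start window" is therefore the first labelled window, and windows are numbered from it (0), with positive numbers into the gene and negative numbers upstream. The deposited files also number coding segments within windows, which places exons but not untranslated ends.

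**Figure D1:**
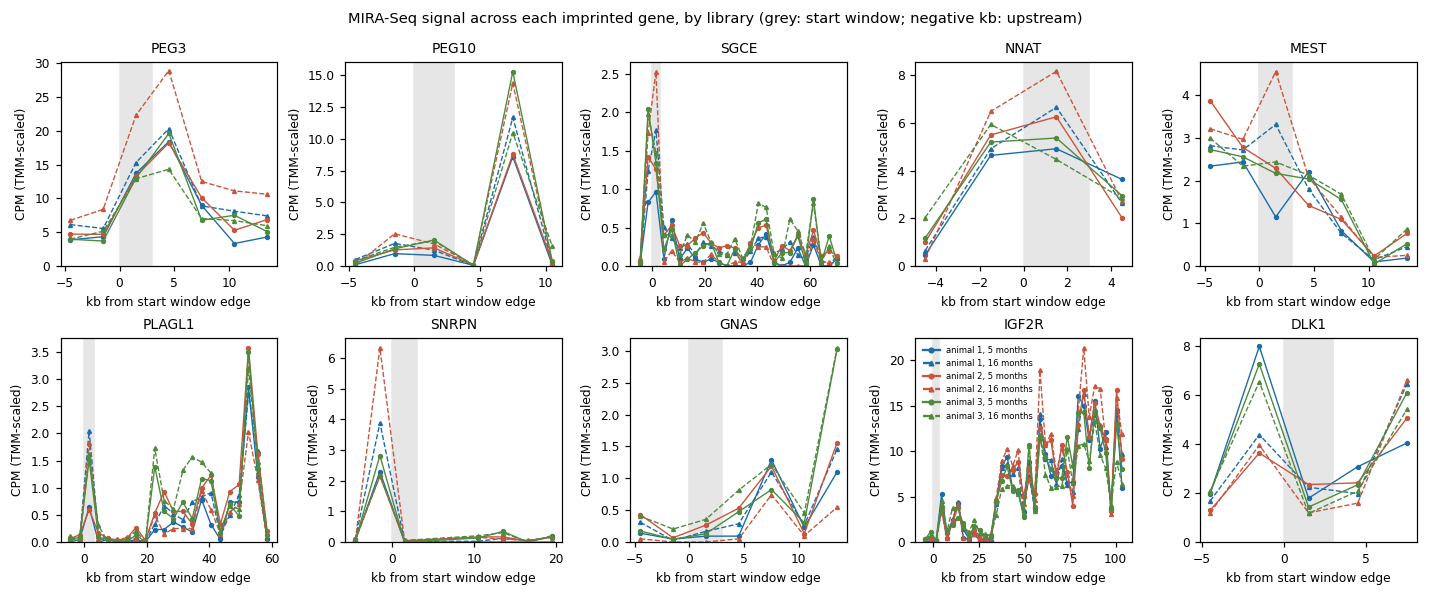
MIRA-Seq signal (TMM-scaled CPM, vertical axes differ between panels) in every 3 kb window of the 10 imprinted genes and their 2 upstream windows against distance from the near edge of the start window in kb, with the start window in grey. Each line is 1 library, solid for 5 months and dashed for 16 months. In SNRPN the line crosses 2 windows that carry another gene's label. The signal peaks at or next to the start in PEG3, SGCE, NNAT and SNRPN, far inside the gene in IGF2R and PLAGL1, and in a single body window in PEG10.

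The PEG3 locus carried the strongest signal of the 10 genes. PEG3 encodes a zinc finger protein expressed from the paternal copy. Its start window (coding segment 4 in the files) held 13.7 and 15.3 CPM in animal 1 at 5 and 16 months, 13.3 and 22.3 CPM in animal 2, and 13 and 12.9 CPM in animal 3. The 16-month library of animal 2 stood highest and the other 5 lay close together. The window after it was higher still, at 20 ± 4.86 CPM (n = 6), and was the highest of the locus in 6 of 6 libraries. The body averaged 10.7 ± 2.68 CPM per window, and even the 2 upstream windows held 5.29 ± 1.64 and 4.89 ± 1.25 CPM. All 7 windows of the locus passed the filter on low counts, which asked for at least 1 CPM in 3 of 6 libraries. The start window exceeded the body in 6 of 6 libraries, but only 1.4-fold (log2 difference 0.49, SE 0.21, adjusted p = 0.0609, edgeR's quasi-likelihood test on 3 animals), under the 2-fold threshold, and the sign turned when the lower upstream window was added to the start (log2 difference -0.08).

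PLAGL1, a zinc finger transcription factor that restrains growth, had a narrow peak at its start and a second one at its far end. The start window held 0.644 and 2.05 CPM in animal 1 at 5 and 16 months, 0.596 and 1.83 CPM in animal 2, and 1.52 and 1.63 CPM in animal 3. The 2 lowest values were both from 5 months. Body windows 1 to 6 held 0.057 ± 0.0345 CPM on average, windows 7 to 16 held 0.649 ± 0.232 CPM, and windows 17 and 18, which reach the first coding segment, held 2.19 ± 0.358 CPM. Window 17 was the highest in 6 of 6 libraries (2.98 ± 0.578 CPM). Against the mean of the whole body the start was 2.31-fold higher (log2 difference 1.21, SE 0.27, adjusted p = 0.00195, edgeR). The start lay above the body in 5 of 6 libraries, but below it in the 5-month library of animal 2 (0.596 against 0.71 CPM). Without animal 1 the log2 difference was 1.0, at the fold threshold. With the nearly empty upstream window added to the start the difference was 0.29 and no longer passed.

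PEG10, a protein-coding gene derived from a retrotransposon, and SGCE, which encodes epsilon-sarcoglycan of the muscle membrane complex, are both read from the paternal copy and share a start region. The start window of SGCE held 0.966 and 1.77 CPM in animal 1 at 5 and 16 months, 1.26 and 2.53 CPM in animal 2, and 1.34 and 1.47 CPM in animal 3. That of PEG10, next to it, held 0.828 and 1.24, 1.42 and 1.73, and 2.04 and 1.98 CPM in the same order. In each animal the SGCE value was higher at 16 months, whereas for PEG10 this held in animals 1 and 2.

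Beyond this shared region the pair differed. The 23 body windows of SGCE averaged 0.214 ± 0.0955 CPM, the highest of them 0.525 CPM, and none passed the filter on low counts, so the start of SGCE was 7.0-fold above its body (log2 difference 2.81, SE 0.31, adjusted p = 1.03e-05, edgeR). In PEG10 the signal lay in the body, in 1 window. Window 2, which holds coding segment 2, carried 8.6 and 11.7 CPM in animal 1, 8.78 and 14.4 CPM in animal 2, and 15.3 and 10.5 CPM in animal 3, and was the highest in 6 of 6 libraries. It held 74.7% of the summed signal of the locus, and the windows on either side held 0.0549 and 0.483 CPM on average. The start of PEG10 was accordingly 2.66-fold below its body (log2 difference -1.41, SE 0.26, adjusted p = 0.000501, edgeR).

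MEST, a member of the alpha/beta-hydrolase family expressed from the paternal copy, held 1.15 and 3.32 CPM in its start window in animal 1 at 5 and 16 months, 2.29 and 4.56 CPM in animal 2, and 2.17 and 2.44 CPM in animal 3. The 16-month value was the higher one in each animal. Signal stayed at 3.0 ± 0.52 and 2.63 ± 0.236 CPM in the 2 unlabelled upstream windows, and was 1.95 ± 0.289, 1.18 ± 0.373 and 0.143 ± 0.0687 CPM in body windows 1 to 3. The start was 2.87-fold above the body (log2 difference 1.52, SE 0.30, adjusted p = 0.000808, edgeR).

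NNAT, a small membrane proteolipid gene that lies inside the gene BLCAP in mammals, had a start window of 4.92 and 6.66 CPM in animal 1, 6.26 and 8.17 CPM in animal 2, and 5.37 and 4.47 CPM in animal 3. Animals 1 and 2 were higher at 16 months and animal 3 at 5 months. The upstream window labelled BLCAP was nearly as high, at 5.45 ± 0.682 CPM, and the next one upstream held 0.933 ± 0.629 CPM. The start was 2.2-fold above the single body window (log2 difference 1.14, SE 0.29, adjusted p = 0.00399, edgeR), a difference that was 0.90 and missed the fold threshold without animal 2.

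SNRPN, which encodes a spliceosomal protein, gave a nearly empty gene beside 1 marked window. Its labelled start held 4 reads over all 6 libraries, with 0 reads in the 5-month libraries of animals 1 and 3, where a count of 0 allows up to 0.138 and 0.13 CPM (3 reads, counting error only). Its body averaged 0.113 ± 0.044 CPM. The window just upstream, labelled SNURF, the coding unit that shares its transcript with SNRPN, held 2.3 and 3.89 CPM in animal 1, 2.15 and 6.34 CPM in animal 2, and 2.82 and 2.18 CPM in animal 3. It carried 85.8% of the summed signal of the locus and was the highest window in 6 of 6 libraries. The labelled start was 4.2-fold below the body (log2 difference -2.07, SE 0.63, adjusted p = 0.0118, edgeR), a ratio that rests on those 4 reads. With the SNURF window counted as part of the start, the direction turned to 3.85 (SE 0.34) on the log2 scale, so the result for SNRPN depends on where the label begins.

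GNAS encodes the stimulatory G protein alpha subunit and belongs to a locus with several alternative starts and imprinted transcripts. Its labelled start held 0.092 and 0.167 CPM in animal 1, 0.265 and 0 CPM in animal 2, and 0.13 and 0.356 CPM in animal 3, or 27 reads in all. The 0 in the 16-month library of animal 2 allows up to 0.149 CPM. The body averaged 0.868 ± 0.362 CPM, with 1.79 ± 1.03 CPM in the last labelled window. The start was 4.9-fold below the body (log2 difference -2.29, SE 0.36, adjusted p = 0.000163, edgeR).

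Since the labels cover a small part of the GNAS locus, the 20 windows upstream were read as well, a choice made after the values were seen. The unlabelled windows 9 to 12 kb and 12 to 15 kb upstream stood out, with 6.38 ± 2.12 CPM (58032797 to 58035796) and 9.2 ± 2.6 CPM (58035797 to 58038796). The second of them held 7.4 and 9.76 CPM in animal 1, 8.91 and 14.1 CPM in animal 2, and 7.1 and 7.92 CPM in animal 3, so the 16-month library was the higher one in each animal, a difference that did not pass (log2 5 months minus 16 months -0.41, SE 0.22, adjusted p = 0.744, edgeR). A further pair of windows between 21 and 27 kb upstream held 3.92 ± 0.695 and 4.33 ± 1.67 CPM. The window 30 to 33 kb upstream, labelled LOC100847488, held 4.23 ± 0.752 CPM, and the others beyond 27 kb averaged at most 2.01 CPM. The windows between the start and 9 kb upstream stayed at or below 0.393 CPM on average.

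IGF2R encodes the receptor that takes up insulin-like growth factor 2 for degradation and is expressed from the maternal copy in several mammals. Its control region in other mammals lies in an intron and not at the start of the gene. The bovine start window held 0, 0.167, 0.199, 0.0495, 0.13 and 0.254 CPM over animals 1 to 3 at 5 and 16 months, 22 reads in all, with a limit of 0.138 CPM for the 0 in animal 1. The window right after it, which holds no coding segment, carried 5.29 and 3.41 CPM in animal 1, 3.51 and 4.11 CPM in animal 2, and 3.9 and 4.57 CPM in animal 3, well above the start in all 6 libraries. The labels do not mark a control region, so neither this window nor another was assigned to one. Windows 7 to 9, between those with coding segments 2 and 3, averaged 1.36, 0.683 and 0.495 CPM.

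Further in, IGF2R held a long stretch of high signal. Body windows 1 to 10 averaged 1.6 ± 0.261 CPM, and windows 6 to 10 only 0.689 ± 0.344 CPM. Windows 11 to 34, of which 21 hold a coding segment, averaged 9.04 ± 1.06 CPM, or 8.89 and 8.99 CPM in animal 1, 9.51 and 10.7 CPM in animal 2, and 8.72 and 7.43 CPM in animal 3. Each of these 24 windows averaged at least 3.58 CPM and passed the filter, and the highest, window 27, held 15.7 ± 3.47 CPM. The start was 48.1-fold below the body, the widest gap of the 10 genes (log2 difference -5.59, SE 0.31, adjusted p = 1.56e-07, edgeR), and the split of the body into stretches was made after its values were seen.

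DLK1, a membrane-bound relative of the Notch ligands that holds back the maturation of fat cells, is expressed from the paternal copy and is controlled from a region between it and MEG3 in other mammals. Its start window held 1.79 and 2.24 CPM in animal 1, 2.35 and 1.19 CPM in animal 2, and 1.43 and 1.17 CPM in animal 3, lower than the body in all 6 libraries (3.94 ± 0.284 CPM). The unlabelled window before it and the last labelled window held 5.64 ± 1.87 and 5.63 ± 0.981 CPM, on either side of the dip. The start was 2.28-fold below the body (log2 difference -1.19, SE 0.28, adjusted p = 0.00259, edgeR), a difference that was -0.99 and missed the fold threshold without animal 3, and -0.16 with the upstream window added to the start.

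**Figure D2:**
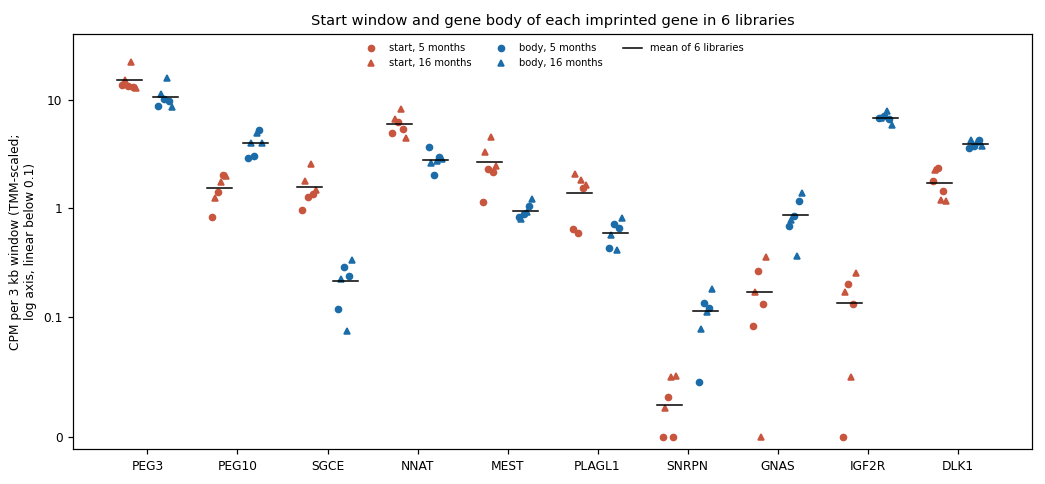
TMM-scaled CPM per 3 kb window (log axis, linear below 0.1) in the start window (red) and the mean of the body windows (blue) of each imprinted gene, with 1 point per library (circles 5 months, triangles 16 months) and a bar at the mean of 6 libraries. Red and blue points do not overlap in SGCE, NNAT, PEG10, GNAS, IGF2R and DLK1, and the widest gap is that of IGF2R.

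Over the 10 genes, the start was higher than the body in 4 (SGCE, MEST, PLAGL1 and NNAT), where 15.8% of the 20129 genes tested had a start called higher, and lower in 5 (IGF2R, GNAS, SNRPN, PEG10 and DLK1), where 47.0% had a start called lower. The call asked for a false discovery rate under 0.1 and a difference of at least 2-fold. The median log2 difference was -0.35 in the 10 genes and -0.87 in all genes. This tally depends on where the start and the body are set. With 1 upstream window added to the start, 4 were called higher (SGCE, MEST, NNAT and SNRPN, beside 15.0% of 20495 genes) and 3 lower (IGF2R, GNAS and PEG10, beside 41.4%), and the median log2 difference was 0.1 in the 10 genes and -0.65 in all. Leaving the second labelled window out of the body kept 9 genes, with 3 called higher (beside 14.4% of 16432 genes) and 5 lower (beside 49.8%). The median log2 difference was then -1.71 in these 9 and -1 in all, so the median of the members lay below that of all genes. The 9 were spread widely, from -5.61 in IGF2R to 2.84 in SGCE.

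The start windows were also set beside those of all labelled genes, as RPKM (reads scaled to window length and to matched reads, mean of 6 libraries). The median of all gene starts was 0.0477 RPKM and their 90th percentile 0.549 RPKM, and the median of the 10 genes was 0.268 RPKM. PEG3 ranked at the 99.4th percentile (2.71 RPKM) and NNAT at the 95.7th (1.08 RPKM). Another 5, MEST (88.3), DLK1 (83.7), SGCE (82.2), PEG10 (81.6) and PLAGL1 (80.5), lay between the 80th and 90th percentile, SGCE and PEG10 through neighbouring windows of 1 shared start region. The planned cut was the 90th percentile, which 2 of the 10 reached, and the 80th was not a planned cut. GNAS (36.3), IGF2R (29.9) and SNRPN (5.93) were in the lower part. The bodies of PEG3 and IGF2R ranked at the 97.4th and 93.6th percentile of all gene bodies, and that of SGCE at the 28.6th. When the 2 upstream windows were included and the highest of the 3 was ranked, 3 genes reached the 90th percentile, PEG3, NNAT and DLK1, and SNRPN moved up to the 84.5th through the SNURF window. These ranks are descriptions and were not tested.

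**Figure D3:**
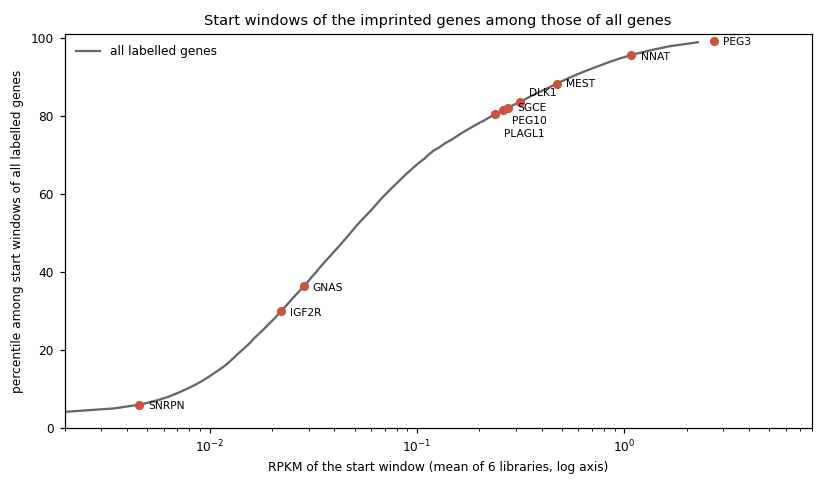
Percentile of each imprinted gene's start window among the start windows of all 26251 labelled gene places (vertical axis) against its RPKM (mean of 6 libraries, log axis). The grey line is the distribution over all labelled genes up to the 99th percentile. PEG3 and NNAT lie above the 90th percentile, 5 genes lie between the 80th and 90th, and GNAS, IGF2R and SNRPN lie below the median.

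The age comparison asked whether the cultures taken from the same animal at 5 and 16 months differed. Of the 124 windows, 58 passed the filter, 29 of them in IGF2R alone. In the fit that keeps each animal as a block, edgeR called 0 of the 58, where 0.185% of the 104658 windows tested in the genome were called. In all, 6 of the 58 (10.3%) had an unadjusted p under 0.05, all higher at 16 months, against 7.1% of all windows. DESeq2 likewise called 0 of the 58. Of the 58 windows, 33 (56.9%) were higher at 16 months, beside 47.4% of all windows and 50% of 5758 gene start windows. These shares are not like for like, since the share varied with signal, from 43.5% under 1.5 CPM to 63.1% at 10 to 20 CPM. The 58 windows had more signal, with a median of 5.54 CPM beside 2.77 CPM in all windows tested. Their log2 difference, 5 months minus 16 months, ran from -1.1 to 0.48 with a median of -0.02.

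The 6 windows belonged to 4 genes. The start of MEST had the lowest adjusted p, with a mean of 1.87 ± 0.624 CPM at 5 months and 3.44 ± 1.06 CPM at 16 months (SD, n = 3 each), a log2 difference of -0.90 (SE 0.26, adjusted p = 0.14, edgeR), and the lowest 16-month value, 2.44 CPM in animal 3, lay just above the highest 5-month value, 2.29 CPM. Window 3 of PEG3 gave 5.36 ± 2.09 and 8.63 ± 2.25 CPM (log2 difference -0.73, SE 0.22, adjusted p = 0.169), with animals 1 and 2 higher at 16 months and animal 3 slightly lower. The last labelled window of PEG3 and the window before its start gave -0.55 (SE 0.21) and -0.56 (SE 0.21), higher at 16 months in 3 of 3 animals. The SNURF window upstream of SNRPN gave 2.42 ± 0.348 and 4.14 ± 2.09 CPM (log2 difference -0.71, SE 0.24, adjusted p = 0.294), higher in animals 1 and 2 and lower in animal 3. The PLAGL1 start gave 0.919 ± 0.518 and 1.84 ± 0.214 CPM (log2 difference -1.10, SE 0.42, adjusted p = 0.431), with -1.16, -1.09 and -0.08 in animals 1 to 3, and the lowest 16-month value again above the highest 5-month value. How many of all windows tested separate by age in this way, or rise in 3 of 3 animals, was not counted. Neither the MEST nor the PLAGL1 start was called.

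These differences were larger in animals 1 and 2 than in animal 3, except in the window before the PEG3 start. Without animal 3, 4 of the windows passed both thresholds, namely the MEST start (-1.21), the PLAGL1 start (-1.62), PEG3 window 3 (-1.16) and the SNURF window (-1.15), all on the log2 scale and higher at 16 months. That fit rests on 2 animals, and over the genome it called 1278 of 103419 windows (1.24%). Leaving out either of the other animals made these differences smaller, with 2 windows at an unadjusted p under 0.05 without animal 1 and 1 without animal 2. The MEST start was then at -0.62 and -0.83, the PLAGL1 start at -0.83 both times, PEG3 window 3 at -0.47 and -0.54, and the SNURF window at -0.68 and -0.22, and none was called. The share of reads that fell in tested windows was 89.8% and 85.2% in animal 1 at 5 and 16 months, 81.0% and 91.1% in animal 2, and 86.1% and 77.9% in animal 3, so it moved with age upwards in animal 2 only, and its part in these differences was not tested.

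Sums over several windows hold more reads. Over all labelled windows of a gene, 9 of the 10 genes could be tested and 0 were called (0.0111% of 18046 genes were), none with an unadjusted p under 0.05, and by DESeq2 also 0. The log2 differences ran from -0.37 in MEST (SE 0.33) to 0.29 in GNAS (SE 0.41), with an adjusted p of 1.0 for each. Over the start region, the start window with the 2 upstream windows, 8 genes could be tested and 0 were called, beside 0.226% of 11945 start regions, and DESeq2 called 0. In direction, 7 of the 8 were higher at 16 months, beside 51.1% of all start regions, and their median log2 difference was -0.47 beside -0.01 for all. PEG10 and SGCE are counted separately among the 8, although their start regions share most of their signal.

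There were 4 start regions with an unadjusted p under 0.05, against 6.12% of all regions, and none passed after adjustment. That count was 1 with DESeq2, 2 with library size only, 1 without the block, and 1, 0 and 5 without animals 1, 2 and 3. SNRPN gave -0.75 (SE 0.24, adjusted p = 0.22, edgeR), PLAGL1 -1.04 (SE 0.51, adjusted p = 0.775), PEG10 -0.53 (SE 0.24, adjusted p = 0.656) and SGCE -0.52 (SE 0.25, adjusted p = 0.731). The last 2 rest on nearly the same reads. Both regions hold the start windows of SGCE and PEG10 (1.56 and 1.54 CPM on average), and their unshared windows held 0.277 CPM (PEG10) and 0.0549 CPM (SGCE). PEG3, MEST, NNAT, PEG10, SGCE and PLAGL1 were higher at 16 months in 3 of 3 animals, SNRPN in 2 of 3, and DLK1 in 0 of 3 (log2 difference 0.24, SE 0.22). How many of all start regions rise in 3 of 3 animals was not counted. In animal 3 the rises were small, from 3.42 to 3.5 CPM in SGCE, 1.65 to 1.73 CPM in PLAGL1 and 20.6 to 22.0 CPM in PEG3. Without animal 3 the SNRPN region was called (-1.21, adjusted p = 0.0029, edgeR), as were 129 of all 11544 regions, and without animal 2 it was at -0.23 (adjusted p = 0.908). The start regions of GNAS and IGF2R were too low to test.

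**Figure D4:**
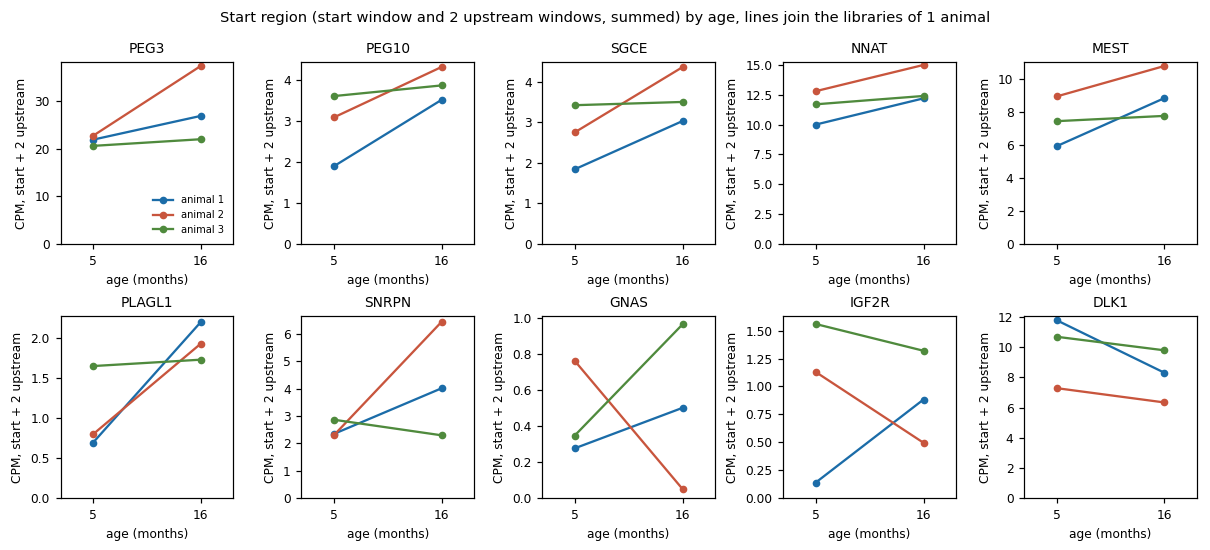
Summed CPM of the start window and the 2 upstream windows of each imprinted gene at 5 and 16 months (vertical axes differ between panels and start at 0), with a line for each of the 3 animals. In 6 genes all 3 lines rise, in DLK1 all 3 fall, and animal 3 changes little in PEG3, MEST, NNAT, PLAGL1, PEG10 and SGCE. How many of all start regions rise in all 3 animals was not counted. The panels of PEG10 and SGCE show largely the same signal, since their start regions overlap. No difference passed the test.

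The comparison of animals asked how far the same windows varied from heifer to heifer. Of the 58 tested, 1 differed between animals at a false discovery rate under 0.1 and at least 2-fold, where 20.6% of all windows tested did. IGF2R alone gave 29 of the 58, so the counts and medians over these windows weigh that gene most. The 2 cultures of each animal served as its replicates. The shares are not like for like, since the imprinted-gene windows had more signal (a median of 5.54 CPM, beside 2.77 CPM in all) and the share called varied with signal, from 6.84% at 5 to 10 CPM to 29.3% under 1.5 CPM and 42.8% above 20 CPM. Among windows with a mean of 3 to 10 CPM, 0 of 29 in these genes and 8.38% of all were called, and the median log2 range between the highest and lowest animal was 0.5 in these 29 and 0.49 in all windows of that range. Over all signal levels it was 0.46 in the 58 windows and 0.63 in all windows tested. The 1 window called was the last labelled window of GNAS, with 1.1 and 1.46 CPM in animal 1, 1.56 and 0.545 CPM in animal 2, and 3.03 and 3.05 CPM in animal 3 (log2 range 1.52, adjusted p = 0.00445, edgeR). Both cultures of animal 3 stood above the other 4.

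This count depended on the scaling of the libraries. With the library size alone in place of TMM factors, 14 of the 58 windows (24.1%) were called, beside 30% of all windows, and animal 3 was the lowest in all 14, where with TMM factors 81.9% of all windows called in the genome had animal 3 highest. The last labelled window of GNAS was not among these 14, so its call was lost under that scaling. The TMM factors of animal 3 were 0.718 and 0.85, and those of the other 4 libraries ran from 1.03 to 1.215.

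**Figure D5:**
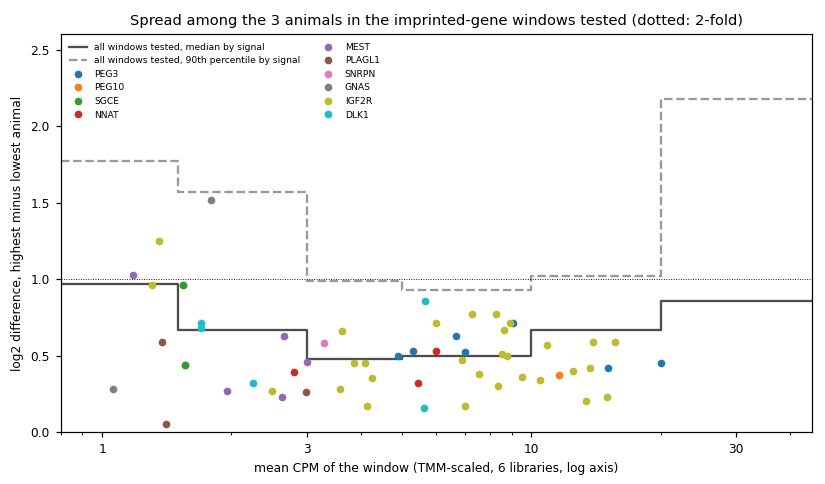
Log2 difference between the highest and the lowest animal (vertical axis) against mean TMM-scaled CPM (log axis) for the 58 imprinted-gene windows tested, coloured by gene, with the median (solid line) and 90th percentile (dashed line) of all windows tested in steps of signal. The dotted line marks 2-fold. In all, 3 windows lie above 2-fold, and 1 of them, the last labelled window of GNAS at 1.52, also passed the test.

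A list of 57 other imprinted genes, of which 42 are labelled in the files, was described in the same way. Its windows overlap those above in part, since the start of SNURF is the window before the SNRPN start and the body window of BLCAP is the window before the NNAT start. Of 40 that could be tested, the start was higher than the body in 6 (15.0%, beside 15.8% of all genes). It was lower in 24 (60.0%, beside 47.0% of all genes), and 10 had no call. There were 7, SNURF among them, with a start window at or above the 90th percentile of all gene starts and 0 at or above the 99th, where PEG3 lay. By age, edgeR called 0 of their 342 tested windows, 0 of 37 genes over all labelled windows and 0 of 17 start regions. Over all features it called 0.185% of windows, 0.0111% of genes and 0.226% of start regions. An unadjusted p under 0.05 was found in 23 of the 342 windows, beside 7.1% of all windows. It was found in 2 of the 37 genes, beside 112 of 18046, and in 3 of the 17 start regions, beside 6.12%. Of the 17 start regions, 12 were higher at 16 months, beside 51.1% of all start regions. Other tools were not run on this list.

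The deepest pile of reads in a window, divided by its read count, is high where signal comes from 1 stack of copies, but also where a window holds few reads. A low value does not exclude copies spread over several stacks. In the tested windows of the 10 genes it had a median of 0.171 and reached 0.387 at most, in GNAS, beside a median of 0.223 in all windows tested. The lowest value, 0.0841, was that of window 27 of IGF2R, the highest window of that gene.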

How the data were processed

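MIRA-Seq was analysed in 6 libraries of bovine dermal fibroblasts. The authors removed reads of low quality or short length, aligned the rest to UMD v3.1 with NextGENe 2.3.4 and deposited, per 3 kb window, raw read counts, the highest coverage depth (a signal) and a gene label. The sources used here do not say how duplicate or multiply mapped reads were handled. Libraries were grouped by age and paired by animal from the sample labels. The deviations of paired libraries from their age means correlated at 0.29, 0.544 and 0.71 in animals 1 to 3. Window counts were tested in edgeR 4.0.16 (quasi-likelihood test, TMM factors, Benjamini-Hochberg over all windows or genes tested), with DESeq2 1.42.0 as an alternative, on windows with at least 1 CPM in 3 of 6 libraries. The study's own test was the paired likelihood-ratio test, run here as an alternative. For start against body, the 2 ages were summed per animal, and genes needed 10 reads in 2 of 3 animals. Calls needed a false discovery rate under 0.1 and at least 2-fold. The scripts were tested on simulated data. Named windows are each member's start, upstream and highest window and those called. The members, the lists and the rule were chosen with earlier results of these data known. No sequences are given because no genome of this build was used here. RefSeq (ARS-UCD2.0) supplied gene lengths only.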

Additional observations from a re-analysis of the deposited data

How the results depend on the processing

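The number of imprinted-gene windows called by age was 0 under the likelihood-ratio test, DESeq2, both other scalings, both other filters and without the replicate block (pairing by animal), and leaving out 1 animal gave 0 to 4. Over the genome, where 194 windows were called, DESeq2 called 15, library size only 99, no filter 2, a lower filter of 0.5 CPM 96, no block 0, and leaving out 1 animal 14 to 1278. Genes summed over all labelled windows stayed at 0 under each alternative run, and start regions gave 0, except when 1 animal was left out (0 to 1). The blocked and unblocked fits both called 9 of 10 starts different from the body, so dropping the block changed no call, and adding 1 upstream window to the start left 7. Leaving the second labelled window out of the body gave 8 of 9. Windows that differed between animals numbered 1 (20.6% of all windows), 2 under the likelihood-ratio test (22.1% of all), 14 with library size only (30%), 0 with no filter on low counts (0.025%), and 0 to 2 when 1 animal was left out, with 1 without animal 1 (20.1%), 2 without animal 2 (14.4%) and 0 without animal 3 (1.43%). The library-size scaling and the smaller sample are part of how those alternatives are built, and for the others the cause was not tested. With 1 upstream window added to the start, the start-body difference reversed in PEG3 (-0.08) and SNRPN (3.85), which follows from the low window before PEG3 and the high one before SNRPN. Depth limits GNAS, IGF2R and SNRPN starts (27, 22 and 4 reads) most, and intervals of counts cover counting error only, since PCR copies are not independent molecules.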
